A study of Homo sapiens with 6 samples.

Results

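Claudins and their partner proteins of the tight junction were followed in the established ovarian carcinoma cell line OVCAR8, of human origin, with and without the peptide hormone relaxin-2 (RLN2). The 9 genes were matched by symbol in the authors' merged count table, and their counts were read from library tables of 58037 gene IDs. A second ID matched for each of OCLN, TJP1 and MARVELD2 had no counts. The 9 genes are the claudins CLDN1, CLDN3, CLDN4, CLDN7 and CLDN12, the tight junction membrane proteins OCLN, MARVELD2 and F11R, and the scaffold TJP1. Of the 9, 6 passed the filter on low counts and were among the 16740 genes tested, and CLDN3, CLDN4 and CLDN7 did not. All cells were plated at 300000 per well with 10% serum and, after 24 hours, kept without serum for 16 hours. They were then left untreated (3 libraries, numbered 2, 3 and 4 in the labels) or given recombinant human relaxin-2 at 50 ng/mL for 8 hours (3 libraries, numbered 1, 2 and 3). Both groups are the same line, and the labels name no genetic change. Whether the replicates were separate cultures is not stated in the labels, and the p-values therefore reflect only how much these libraries vary, which may be technical.

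Tight junctions are belts near the apex of epithelial cells that seal the space between neighbours and decide which ions and molecules may pass. Claudins are membrane proteins whose strands form the seal and its pores, occludin and its MARVEL relatives join these strands, and junctional adhesion molecules of the immunoglobulin family lie beside them. On the inner side, zonula occludens scaffolds tie the strands to actin. Several claudins, CLDN3 and CLDN4 above all, are known to be high in many ovarian carcinomas, and CLDN3, CLDN4 and CLDN7 are known targets of repression by SNAI and ZEB factors in cells that lose epithelial features.

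The libraries held 11939148 to 22426768 reads assigned to genes, 113628275 in all, and no pair agreed within sampling noise. Relaxin-2 replicate 2 stood apart from every other library. It had the fewest gene reads, 27.0% multimapping reads against 5.31% to 6.19% elsewhere, and a chi-square over genes, divided by its degrees of freedom, of 42.9 to 96.4 against each other library. Untreated replicate 2 came next, at 31.5 to 61.4 against the remaining 4.

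The carcinoma label was checked by marker genes, which were present only in part. Of 10 ovarian carcinoma cell markers, 7 were tested, led by the keratins KRT18 (362 ± 89.4 on the reads-per-kilobase-of-exon-per-million scale, RPKM, SD, n = 3 untreated) and KRT8 (102 ± 32.0), while MUC16 and KRT19 had 4 reads each and SOX17 had 5. Their summed CPM (counts-per-million) ran from 1498 to 2565 in untreated and from 2365 to 2872 in relaxin-2 libraries, with 6 of 7 above and 1 below 0 in log2 fold change and a median of 0.30, or 0.02 with offsets for GC content and length. MSLN, or mesothelin, stood at 8.18 ± 4.24 RPKM untreated and 14.7 ± 3.03 with relaxin-2 (log2 fold change 0.84 ± 0.39, edgeR adjusted p = 0.408, 0.29 with offsets, 0.46 without untreated replicate 2). Of 10 mesenchymal and fibroblast markers 5 were tested, 4 above and 1 below 0, and the summed CPM ran from 2553 to 2772 untreated and from 2752 to 2890 with relaxin-2. VIM stood at 330 ± 2.78 RPKM untreated and 344 ± 9.02 with relaxin-2, and DCN and FAP had 0 reads. The collagen gene COL1A1 stood at 6.33 ± 2.41 and 11.4 ± 2.07 RPKM, and its groups did not overlap (log2 fold change 0.84 ± 0.27, unadjusted p = 0.0136, edgeR adjusted p = 0.408, 0.42 with offsets). COL1A1 passed under 1 setting, with no filter on low counts (edgeR adjusted p = 0.0168, over alternatives 0.0168 to 0.902). The part of these marker differences in the values below was not tested. The 8 endothelial markers, 5 of them tested, had a summed CPM of 9.0 to 11.8 in untreated and 11.5 to 11.9 in relaxin-2 libraries, with CLDN5 at 0 and CDH5 at 5 reads. The 6 leukocyte markers, 1 of them tested, summed to 0.810 to 1.44 and 1.05 to 1.22 CPM, with CD3E at 0 and PTPRC at 2 reads.

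Of the 5 claudin genes, CLDN1 and CLDN12 had 8635 and 10204 reads and CLDN3, CLDN4 and CLDN7 almost none. CLDN1, a sealing claudin of epidermis and many other epithelia, lies on chromosome 3, 190305701 to 190322475, minus strand (GRCh38, GENCODE release 29). CLDN12, a claudin without the usual binding motif for zonula occludens scaffolds, lies on chromosome 7, 90383721 to 90513402, plus strand. CLDN3 (chromosome 7, 73768997 to 73770270, minus strand) and CLDN4 (chromosome 7, 73799542 to 73832693, plus strand) are neighbours that lie 29272 bases apart, and both proteins bind the enterotoxin of Clostridium perfringens. CLDN7 (chromosome 17, 7259903 to 7263983, minus strand) is a claudin of collecting ducts, gut and other epithelia that binds EPCAM.

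The starts of these 5 genes are shown because 2 of them were expressed and 3 nearly silent in the same cells. RefSeq's promoter entries for GRCh38.p14 span 250 bases before to 50 after a start, and 8 of the 9 genes had at least 1 of 13 entries. The starts used for CLDN12, CLDN4 and the printed entry of CLDN7 lie inside the span that GENCODE gives the gene. Each is given 5′ to 3′ on the gene's strand, with the E-box CACCTG or its reverse complement CAGGTG in capitals, the letters that SNAI and ZEB factors are known to bind.
CLDN1 chr3:190322397-190322696 (-): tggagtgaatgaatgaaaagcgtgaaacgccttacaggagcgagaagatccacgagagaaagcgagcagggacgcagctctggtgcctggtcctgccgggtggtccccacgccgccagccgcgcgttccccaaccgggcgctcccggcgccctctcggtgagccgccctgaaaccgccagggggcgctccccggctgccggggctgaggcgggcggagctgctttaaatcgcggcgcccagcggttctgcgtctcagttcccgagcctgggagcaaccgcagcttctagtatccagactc
CLDN12 chr7:90403211-90403510 (+): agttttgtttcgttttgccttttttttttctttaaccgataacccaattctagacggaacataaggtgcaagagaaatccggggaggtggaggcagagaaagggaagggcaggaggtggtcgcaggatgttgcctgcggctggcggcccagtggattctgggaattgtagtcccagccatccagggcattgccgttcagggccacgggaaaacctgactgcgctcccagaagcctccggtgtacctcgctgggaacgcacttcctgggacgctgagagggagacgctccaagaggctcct
CLDN3 chr7:73770221-73770520 (-): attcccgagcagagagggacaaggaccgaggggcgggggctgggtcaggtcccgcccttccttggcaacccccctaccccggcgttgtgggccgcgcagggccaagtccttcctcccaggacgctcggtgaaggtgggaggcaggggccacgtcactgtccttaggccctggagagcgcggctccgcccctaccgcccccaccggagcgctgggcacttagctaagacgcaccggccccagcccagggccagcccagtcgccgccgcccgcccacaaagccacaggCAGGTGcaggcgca
CLDN4 chr7:73830746-73831045 (+): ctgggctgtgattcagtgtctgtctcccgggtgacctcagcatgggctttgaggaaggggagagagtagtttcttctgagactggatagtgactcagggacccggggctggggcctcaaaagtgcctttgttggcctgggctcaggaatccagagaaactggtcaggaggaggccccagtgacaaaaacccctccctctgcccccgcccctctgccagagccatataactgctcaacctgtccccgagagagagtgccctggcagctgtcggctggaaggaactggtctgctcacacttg
CLDN7 chr17:7262429-7262728 (-): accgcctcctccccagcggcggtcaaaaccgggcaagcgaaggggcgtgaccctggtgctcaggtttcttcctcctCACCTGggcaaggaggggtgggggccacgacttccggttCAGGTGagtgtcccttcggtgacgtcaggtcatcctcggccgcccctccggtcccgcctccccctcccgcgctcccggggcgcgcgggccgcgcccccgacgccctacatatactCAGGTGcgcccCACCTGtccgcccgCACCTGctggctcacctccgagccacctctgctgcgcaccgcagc
The E-box letters, on either strand, were present in 20.6% of 35116 promoters of the same length. CLDN7 has 2 entries, and the one printed holds 5 copies, a number reached by 33 of the 35116 promoters (0.094%). Its other entry, chr17:7263164-7263463, holds 0, CLDN3 holds 1 and CLDN4, CLDN1 and CLDN12 hold 0. The share of 0.094% was taken over promoters of any base composition. Its minimum of 5 copies was set from the printed CLDN7 entry itself, the highest count among the 13 entries. The share therefore only describes that entry and tests nothing. Letters of other motifs were counted too. Those of GRHL factors, AACCGG, were present in 7.23% of promoters. The printed CLDN7 entry held 2, its other entry 0, CLDN1 1, and CLDN12, CLDN3 and CLDN4 0. The OCLN entries held 0 and 1, MARVELD2 1 and every TJP1 entry 0. The CLDN1 stretch is 67.0% G or C with 31 CpG dinucleotides, that of CLDN12 56.0% with 15, of CLDN3 72.0% with 24, of CLDN4 59.0% with 5 and of CLDN7 as printed 71.7% with 30. The median promoter is 58.7% G or C with 14 CpG. A match describes the letters only, and binding was not measured. Of the remaining genes, the 2 entries of OCLN held 1 and 2 E-boxes, the 4 entries of TJP1 held 1, 0, 0 and 0, and MARVELD2 held 0.

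CLDN1 had 1825, 1768 and 1246 reads in untreated replicates 2, 3 and 4, and 1320, 828 and 1648 in relaxin-2 replicates 1, 2 and 3. Per kilobase this was 22.4, 21.2 and 19.6 RPKM untreated and 20.1, 19.7 and 20.5 RPKM with relaxin-2. The lowest library was untreated and so was the highest, and the groups overlapped. CLDN12 had 2364, 2078 and 1427 reads untreated, and 1597, 912 and 1826 with relaxin-2. Its levels were 15.8, 13.5 and 12.2 RPKM untreated and 13.2, 11.8 and 12.3 RPKM with relaxin-2. Untreated replicate 2 was the highest library and relaxin-2 replicate 2 the lowest, and the groups overlapped here too.

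Together these genes made nearly all of the length-scaled RNA of the 5 claudins. CLDN1 took 60.8% of their summed RPKM (58.5% to 62.3% over the 6 libraries) and CLDN12 took 38.7% (37.3% to 41.2%). CLDN4 took 0.264%, CLDN7 0.247% and CLDN3 0.0617%. The order of the leading pair depended on gene length. With the length of the longest transcript in place of all exon bases, CLDN12 stood at 24.8 and CLDN1 at 21.6 RPKM. CLDN12 also shares 16.3% of its exon bases with other genes of the same strand, among them CDK14 and GTPBP10, whose reads in shared exons are left uncounted, and its level over unshared bases was 15.7 RPKM.

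CLDN3 had 0, 1 and 1 reads in untreated replicates 2, 3 and 4, and 1, 0 and 0 in relaxin-2 replicates 1, 2 and 3. Its 3 reads in all correspond to 0.0264 CPM, with an exact Poisson 95% interval of 0.00544 to 0.0772 that covers counting error only, as do those that follow. CLDN4 had 4, 9 and 12 reads untreated and 9, 4 and 8 with relaxin-2. Its 46 reads correspond to 0.405 CPM (0.296 to 0.540), and its CPM with relaxin-2 over that in untreated cells had a ratio of 1.00 (exact 95% interval 0.533 to 1.86). Differences within that interval were not detectable at this depth. For CLDN3 the same ratio was 0.596 with an interval of 0.0101 to 11.4, from which no direction can be read.

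CLDN7 had 5, 9 and 3 reads untreated and 2, 1 and 6 with relaxin-2, 26 in all or 0.229 CPM (0.149 to 0.335). The ratio of relaxin-2 to untreated was 0.631 (0.248 to 1.5), which includes no difference, and the libraries of both groups overlapped. More reads, 69, lay over CLDN7 exons on the strand opposite to the gene, 72.6% of those on both. ELP5, a subunit of the Elongator complex with 2902 reads, overlaps CLDN7 on that opposite strand and shares 38 exon bases with it. Counted without strand, CLDN7 stood at 0.159 RPKM, against 0.0845 on its own strand. ELP5, and the other genes named below only for their position, were chosen after their levels had been seen.

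Genes next to these low claudins differed in level. ABHD11, a mitochondrial hydrolase 30130 bases from CLDN3, had 583 reads (2.24 ± 0.368 RPKM, SD, n = 6), whereas METTL27, a methyltransferase-like gene 1897 bases past CLDN4, had 32. CLDN16, a kidney claudin for magnesium reabsorption, is annotated 66 bases from CLDN1 on the opposite strand and had 20 reads against CLDN1's 8635. CLDN3 and CLDN4 share 22 and 29 of their own 50-base stretches with any other gene, 1.80% and 0.705% of the total. For each, the other shares more of them than any further gene does.

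**Figure D1:**
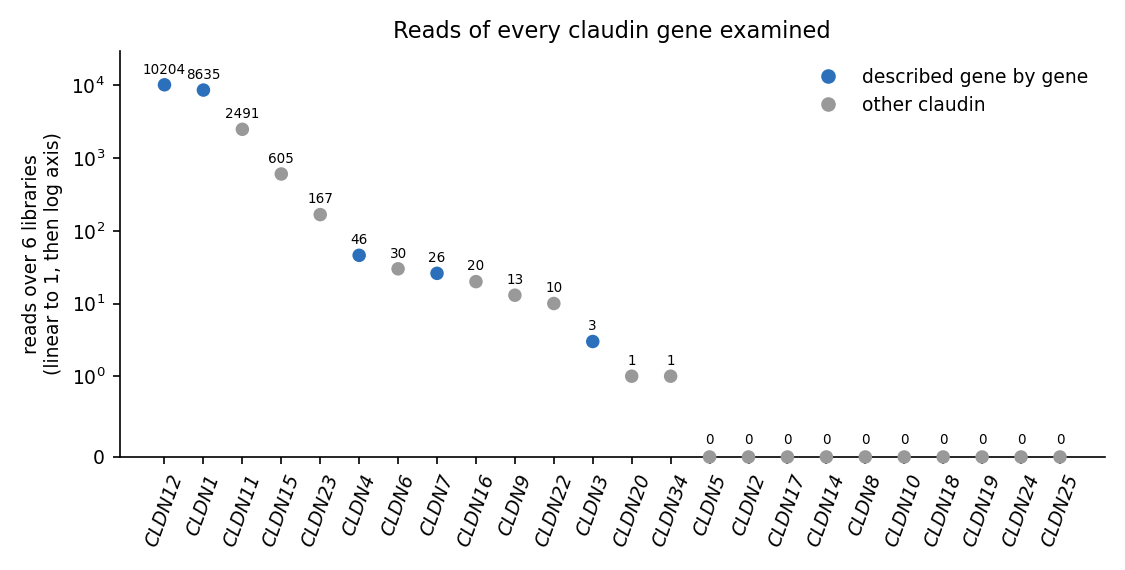
Reads summed over the 6 libraries (vertical axis, linear from 0 to 1 and logarithmic above) for each of 24 numbered claudin genes, with the claudins described gene by gene in blue and the others in grey. CLDN12 with 10204 and CLDN1 with 8635 reads stand above CLDN11 with 2491, and 10 claudins have 0 reads.

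Among all 24 numbered claudins examined, 5 passed the filter on low counts, 9 had from 1 to 46 reads and 10 had none. The plot of reads by claudin shows this division. CLDN2, the cation pore of leaky epithelia, CLDN5, the endothelial claudin, and CLDN18, known from stomach and lung, had 0 reads, as did CLDN8, CLDN10, CLDN14, CLDN17, CLDN19, CLDN24 and CLDN25. By a one-sided 95% Poisson limit, unlike the two-sided intervals above, a count of 0 allows up to 3 reads among the 113628275. These counts are for the gene's own strand. On the opposite strand CLDN10 had 479 reads, CLDN18 314, CLDN24 30 and CLDN5 25, and counted without strand they had 76, 311, 30 and 24. CLDN11, a claudin of myelin and Sertoli cells, followed CLDN12 and CLDN1 by reads and stood at 6.00 ± 0.495 RPKM untreated and 5.71 ± 0.350 with relaxin-2 (SD, n = 3 each). CLDN6 had 30 and CLDN9 had 13 reads.

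OCLN encodes occludin, a MARVEL-domain membrane protein of tight junction strands (chromosome 5, 69492292 to 69558104, plus strand). It stood at 10.2, 8.04 and 8.84 RPKM in the untreated and 8.25, 8.98 and 8.59 RPKM in the relaxin-2 libraries. Both the highest and the lowest library were untreated. About 9.16% of its 50-base stretches recur in other genes, most often in the pseudogene OCLNP1 with 4 reads. Reads that fit such a stretch and its copy equally well are left out as multimapping, and their number was not measured.

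MARVELD2 encodes tricellulin, the relative of occludin at tricellular corners, and lies 47962 bases from OCLN on the same strand (chromosome 5, 69415065 to 69444330). It stood at 1.06, 1.02 and 1.15 RPKM untreated and 1.09, 1.10 and 1.04 RPKM with relaxin-2. All 6 libraries lay within 1.02 to 1.15, and the relaxin-2 libraries lay inside the untreated range. RAD17, a checkpoint clamp loader gene that ends 264 bases before MARVELD2 on the same strand, stood at 12.0 ± 1.28 RPKM (SD, n = 6), well above MARVELD2 in every library.

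F11R encodes junctional adhesion molecule A, which takes part in junction assembly and polarity (chromosome 1, 160995211 to 161021348, minus strand). Its levels were 5.03, 4.66 and 4.84 RPKM untreated and 4.81, 4.68 and 5.30 RPKM with relaxin-2. Untreated replicate 3 was lowest and relaxin-2 replicate 3 highest, with the other libraries between. F11R shares 36.6% of its exon bases with another gene ID of the same strand that had 0 reads, and over its unshared bases its level was 7.70 RPKM.

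TJP1 encodes ZO-1, the scaffold that binds claudin tails, occludin and actin (chromosome 15, 29699367 to 29968865, minus strand). Its levels were 34.7, 29.5 and 32.3 RPKM untreated and 33.8, 31.7 and 31.9 RPKM with relaxin-2. Here too an untreated library was highest and another lowest.

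**Figure D2:**
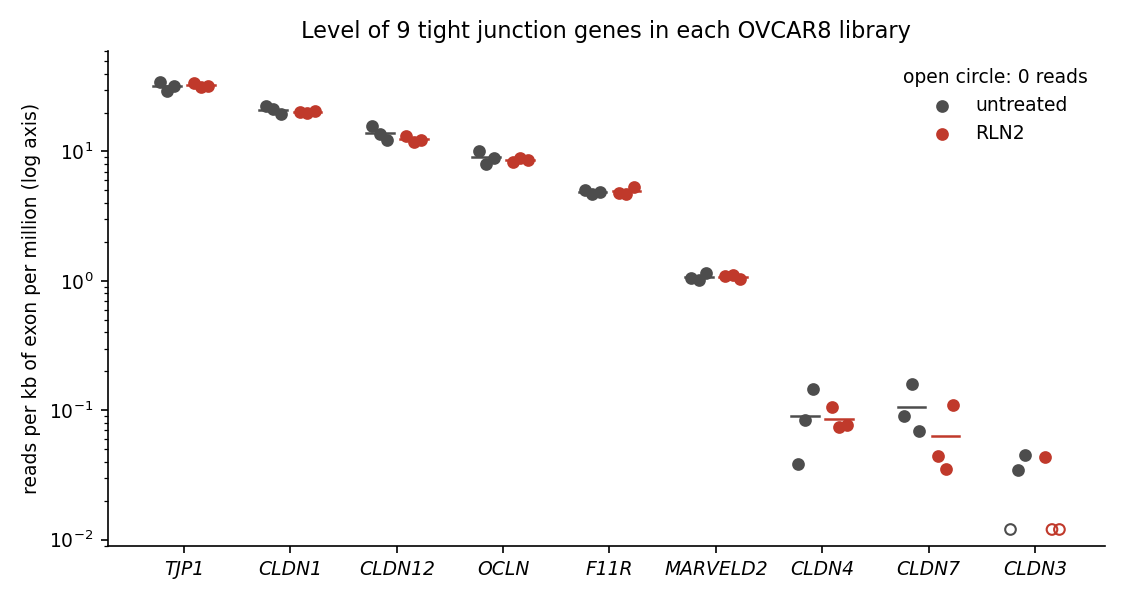
Level of each of the 9 genes in each library, in RPKM on a log axis. Points are libraries, short lines are group means of 3 untreated or 3 relaxin-2 libraries, and open circles are libraries with 0 reads. TJP1 is highest at 29.5 to 34.7, and CLDN4, CLDN7 and CLDN3 stay at or under 0.158.

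The order of levels per length was the same in every library down to MARVELD2. Over the 6 libraries TJP1 stood at 32.3 ± 1.79, CLDN1 at 20.6 ± 1.08, CLDN12 at 13.1 ± 1.45 and OCLN at 8.81 ± 0.749 RPKM (SD, n = 6). F11R followed at 4.89 ± 0.244 and MARVELD2 at 1.08 ± 0.0464 RPKM, and then came CLDN4 at 0.0879 ± 0.0364, CLDN7 at 0.0845 ± 0.0456 and CLDN3 at 0.0206 ± 0.0228. Ranges of neighbours in this order did not overlap except between CLDN4 and CLDN7 and between CLDN7 and CLDN3, as the plot of levels by gene shows. This order takes all exon bases as the length, and by longest transcript CLDN12 stood above CLDN1. TJP1 lay above 91.6% of tested genes in level, CLDN1 above 85.8%, CLDN12 above 78.1%, OCLN above 69.6%, F11R above 56.4% and MARVELD2 above 24.8%. MARVELD2 exceeded CLDN4 by 12.3 times, the widest step in the order.

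After 8 hours of relaxin-2, none of the 6 tested genes passed the test. In bulk RNA, fewer cells with a transcript and less of it per cell cannot be told apart. By edgeR's quasi-likelihood test with Benjamini-Hochberg adjustment over all 16740 genes, 0% of genes were called (smallest adjusted p = 0.408), against 0 of the 6. At an unadjusted p under 0.05 there were 1811 genes, 10.8% of those tested, and 0 of the 6. The call count was likewise 0 by DESeq2 (1677 genes under an unadjusted p of 0.05) and by limma-voom (2058). The groups did not overlap for 3574 genes, or 21.4%, and for 0 of the 6. Fitted log2 fold changes, relaxin-2 minus untreated, were above 0 for 3 of the 6 and below 0 for 3, with a median of -0.03 beside -0.01 over all tested genes. The median of the 6 turned to 0.064 with GC and length offsets, to 0.0088 without untreated replicate 2 and to 0.0017 without both libraries numbered 2.

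CLDN12 had the widest difference of the 6. It stood at 93.3 ± 12.2 CPM untreated and 83.8 ± 4.76 CPM with relaxin-2 (SD, n = 3 each), a log2 fold change of -0.16 ± 0.10 (SE) with a 95% interval of -0.39 to 0.08 and an edgeR adjusted p of 0.446. For CLDN1 the means were 77.2 ± 5.17 and 73.5 ± 1.39 CPM, with a log2 fold change of -0.07 ± 0.08 (interval -0.24 to 0.10, edgeR adjusted p = 0.603). Both differences were smaller than the spread of the untreated libraries.

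Among the MARVEL proteins, OCLN stood at 61.0 ± 7.23 CPM untreated and 58.2 ± 2.48 with relaxin-2. Its log2 fold change was -0.07 ± 0.10 (interval -0.30 to 0.16, edgeR adjusted p = 0.711). MARVELD2 stood at 5.78 ± 0.354 and 5.79 ± 0.174 CPM, with a log2 fold change of 0.0024 ± 0.13 (interval -0.30 to 0.31, edgeR adjusted p = 0.994). With 68 to 126 reads per library, MARVELD2 had the widest interval of the 6.

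F11R stood at 24.5 ± 0.936 CPM untreated and 25 ± 1.67 with relaxin-2, a log2 fold change of 0.03 ± 0.10 (interval -0.20 to 0.26, edgeR adjusted p = 0.886). TJP1 stood at 362 ± 29.1 and 366 ± 12.8 CPM, a log2 fold change of 0.02 ± 0.08 (interval -0.16 to 0.19, edgeR adjusted p = 0.923). Over the 6 genes the 95% intervals reached from a fold of 0.761 (CLDN12) to 1.24 (MARVELD2), so fold changes beyond these bounds were outside the intervals of these libraries while smaller ones were not. The sign of each of the 6 differences turned under at least 1 of 19 alternative settings, and none of the 6 passed under any of them.

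**Figure D3:**
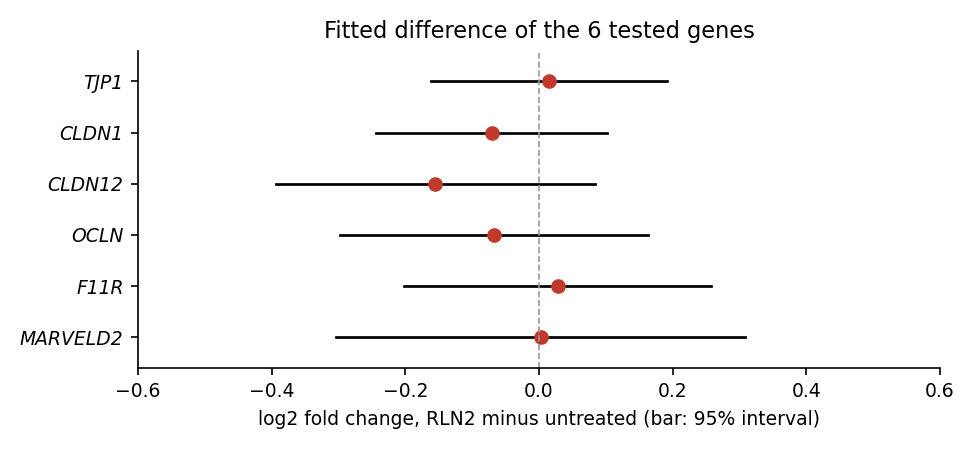
Fitted log2 fold change, relaxin-2 minus untreated (horizontal axis), of the 6 tested genes, with bars for 95% intervals from edgeR's quasi-likelihood fit over 3 libraries a group. All 6 intervals cross 0, and CLDN12 lies farthest from it at -0.16.

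Among the untreated libraries replicate 2 stood farthest from the others. There CLDN12 lay 0.27 above its own mean over 6 libraries on the log2 CPM scale, OCLN 0.21, CLDN1 0.13 and TJP1 0.10, while MARVELD2 lay at -0.03. The median deviation of the 6 genes was 0.11 in that library and -0.07 in untreated replicate 3, and between -0.04 and -0.0043 in the other 4. Without untreated replicate 2 the log2 fold change was -0.05 for CLDN12 and 0.03 for OCLN. Without relaxin-2 replicate 2, the other library that stood apart, it was -0.12 for CLDN12, -0.06 for CLDN1, -0.10 for OCLN, 0.03 for TJP1, 0.06 for F11R and -0.01 for MARVELD2. The genes with an unadjusted p under 0.05 then numbered 492 in place of 1811. Such a drop was not particular to that library, with 612 genes without relaxin-2 replicate 3 and 1244 without untreated replicate 3. The number was 1851 without relaxin-2 replicate 1, 2094 without untreated replicate 2 and 3602 without untreated replicate 4.

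**Figure D4:**
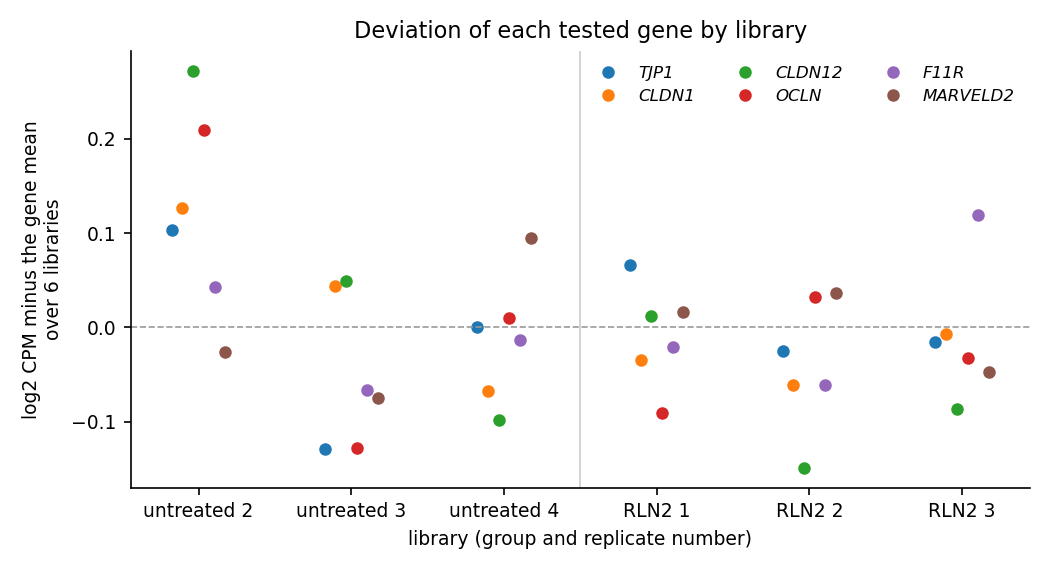
Deviation of each tested gene from its own mean over the 6 libraries (vertical axis, log2 CPM), by library. CLDN12 at 0.27 and OCLN at 0.21 in untreated replicate 2 are the largest deviations plotted.

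Untreated replicate 2 also stood apart by base composition. Over all tested genes sorted into 5 bins of equal size by the mean GC content of their transcripts, the median log2 fold change was -0.17 in the lowest bin and -0.12, -0.03, 0.15 and 0.45 in the next. Untreated replicate 2 deviated by a median of 0.22 in the lowest bin and -0.70 in the highest, and relaxin-2 replicate 2 by -0.12 and 0.36. CLDN12 (42.2% GC) and OCLN (41.9%) belong to the lowest bin, CLDN1 (42.9%) and TJP1 (42.7%) to the next and MARVELD2 (47.0%) and F11R (50.7%) to the middle. None of the 6 lies in the upper 2 bins. With offsets that remove each library's trend on GC content and length, CLDN12 had a log2 fold change of 0.0032, CLDN1 of 0.067, OCLN of 0.075 and TJP1 of 0.14 (unadjusted p = 0.0192, edgeR adjusted p = 0.433). In that fit 1752 of the 16740 tested genes had an unadjusted p under 0.05. The untested claudins are richer in G and C, at 69.2% for CLDN3, 59.1% for CLDN7 and 56.1% for CLDN4.

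**Figure D5:**
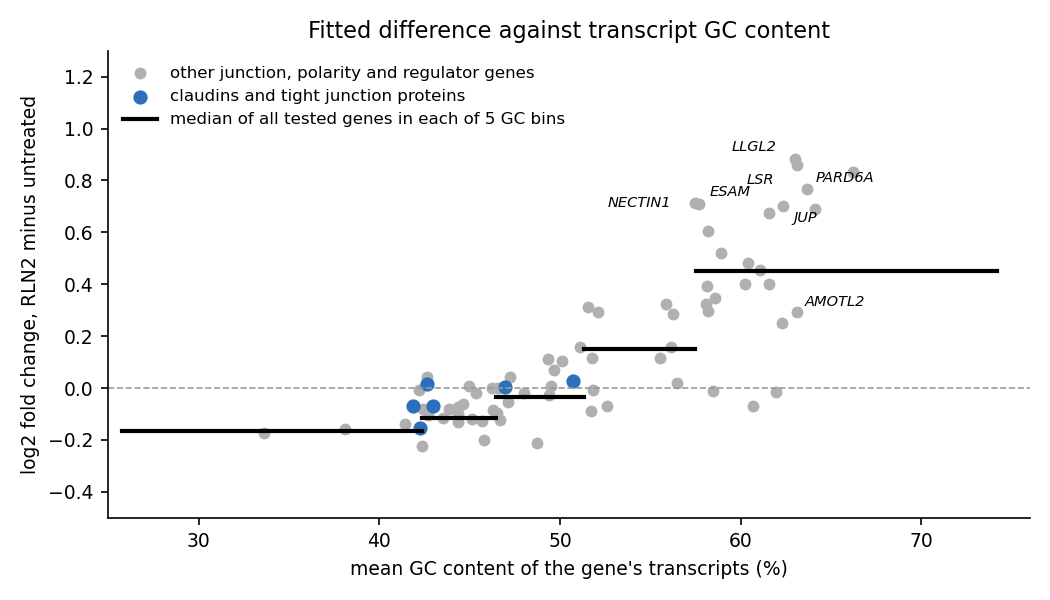
Fitted log2 fold change, relaxin-2 minus untreated (vertical axis), against the mean GC content of a gene's transcripts in percent, for the 6 tested genes (blue) and 69 tested genes of 8 related lists (grey). Black lines are medians of all tested genes in each of 5 equal bins by GC, from -0.17 to 0.45, and the blue points lie in the lower 3 bins.

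The genes that work with these proteins were read in 8 lists of 99 genes, of which 69 were tested and 0 passed. Of the 23 list genes in the highest GC bin, 20 had a fold change above 0, against 0 of 4 in the lowest bin and 2 of 17 in the next. Values with GC and length offsets are given beside each log2 fold change beyond 0.25. The offsets moved the median of the plaque scaffolds from 0.22 to 0.05 and that of the other claudins from -0.07 to -0.19, and turned those of the JAM genes to 0.05, the polarity genes to 0.02 and the partners and activators to -0.00018. Without untreated replicate 2 the median of the plaque scaffolds was 0.13, that of the adherens junction genes turned to -0.0051 and that of the JAM genes to 0.03. Without relaxin-2 replicate 2 the median of the JAM genes was 0.02, and without relaxin-2 replicate 3 that of the polarity genes was 0.03. The median of the repressors was 0.0086 without both libraries numbered 2 and 0.0033 with 1 surrogate variable.

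Of the other claudins and claudin-domain genes, 4 of 21 were tested, with 1 above and 3 below 0 and a median log2 fold change of -0.07. That median was -0.15 when relaxin-2 replicate 1 was left out and 0.01 when relaxin-2 replicate 3 was. CLDND1, a claudin-domain protein, stood at 10.7 ± 1.11 RPKM untreated and 9.82 ± 0.393 with relaxin-2 (log2 fold change -0.13 ± 0.10). CLDN15, a cation-pore claudin of the intestine, stood at 1.72 ± 0.603 and 2.05 ± 0.564 RPKM (log2 fold change 0.25 ± 0.31, -0.25 with offsets and -0.01 without untreated replicate 2). These differences lay within the spread of the libraries.

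LSR, or angulin-1, recruits tricellulin to tricellular corners, and it was 1 of the 2 tested genes among 4 tricellular and MARVEL proteins. It stood at 2.02, 4.60 and 5.08 RPKM untreated and 5.99, 7.98 and 7.23 RPKM with relaxin-2. Every relaxin-2 library was above every untreated one, and untreated replicate 2 was lowest. The log2 fold change was 0.86 ± 0.31 (unadjusted p = 0.024, edgeR adjusted p = 0.408), 0.54 without untreated replicate 2 and 0.35 with offsets for its GC content of 63.1%. It passed under 1 setting, with no filter on low counts (edgeR adjusted p = 0.0475, over alternatives 0.0475 to 0.902). ILDR1, another angulin, had 0 reads and MARVELD3, a further MARVEL protein, had 26.

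Of 7 JAM and related immunoglobulin genes, 4 were tested, 2 above and 2 below 0, with a median of -0.04. CLMP, an adhesion molecule of the CTX family, was highest at 22.6 ± 0.973 RPKM untreated and 22.7 ± 1.39 with relaxin-2. CXADR, the coxsackie and adenovirus receptor, stood at 11 ± 1.37 and 10.5 ± 0.672 RPKM. ESAM, an endothelial adhesion molecule that also counts among the endothelial markers here, stood at 0.918 ± 0.352 and 1.47 ± 0.139 RPKM (log2 fold change 0.71 ± 0.26, edgeR adjusted p = 0.408, 0.43 with offsets, 0.56 without untreated replicate 2).

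All 18 plaque scaffolds, the relatives of ZO-1 and the proteins it binds, were tested, with 13 above and 5 below 0 and a median of 0.22. For 4 of the 18 the groups did not overlap, beside 21.4% of all genes. AMOTL2, an angiomotin of actin and Hippo signalling, stood at 38.9, 51.2 and 52.8 RPKM untreated and 52.8, 61.3 and 60.8 RPKM with relaxin-2. Untreated replicate 2 was lowest. Its log2 fold change of 0.29 ± 0.12 (edgeR adjusted p = 0.408) turned to -0.31 with offsets and was 0.16 without untreated replicate 2. YBX3, the ZO-1-associated Y-box factor, stood at 24.6 ± 1.45 and 26.6 ± 0.210 RPKM, and SYMPK, a polyadenylation scaffold also found at tight junctions, at 3.28 ± 1.07 and 4.71 ± 0.802 (log2 fold change 0.52 ± 0.24, 0.16 with offsets and 0.27 without untreated replicate 2).

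Of 16 genes of the polarity complexes 15 were tested, 6 above and 9 below 0, with a median of -0.02. The GTPase CDC42 stood at 80.0 ± 9.70 RPKM untreated and 73.8 ± 5.72 with relaxin-2, and LIN7C, of the Crumbs and PALS1 complex, at 36.7 ± 4.55 and 32.5 ± 2.80. PARD6A, which binds CDC42 and atypical protein kinase C, stood at 0.605, 0.826 and 0.775 RPKM untreated and 1.16, 1.29 and 1.31 with relaxin-2. Its groups did not overlap, with a log2 fold change of 0.77 ± 0.21 (unadjusted p = 0.00612, edgeR adjusted p = 0.408) of 0.20 with offsets and of 0.64 without untreated replicate 2. LLGL2, a basolateral polarity protein, had a log2 fold change of 0.88 ± 0.38 with overlapping groups, of 0.37 with offsets and of 0.53 without untreated replicate 2.

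In the adherens junction, which lies below the tight junction, N-cadherin RNA exceeded that of the epithelial cadherin. N-cadherin's gene CDH2 stood at 52.2 RPKM untreated and 52.6 with relaxin-2, and CDH1, which encodes E-cadherin, at 0.147 and 0.16 with 102 reads in all. Of 12 adherens junction and nectin genes 11 were tested, 8 above and 3 below 0, with a median of 0.04. The catenins CTNNA1 (66.7 ± 4.62 and 68.6 ± 0.962 RPKM) and CTNNB1 (58.6 ± 2.24 and 55.3 ± 0.95) were high in both groups. JUP, or plakoglobin, and NECTIN1, an adhesion molecule, had log2 fold changes of 0.70 ± 0.26 and 0.71 ± 0.26 without overlap of groups (edgeR adjusted p = 0.408 for both), of 0.22 and 0.43 with offsets, and of 0.43 and 0.47 without untreated replicate 2.

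Known partners of claudins and activators of epithelial genes were uneven in level. Of 14, 8 were tested, 5 above and 3 below 0, with a median of 0.10. AP1M2, an epithelial clathrin adaptor subunit, stood at 53.3 ± 6.62 RPKM untreated and 59.5 ± 1.52 with relaxin-2, and the transcription factor KLF5 at 23.8 ± 2.03 and 23.8 ± 0.586. EPCAM, which binds CLDN7, stood at 12.4 ± 1.75 and 12.0 ± 0.396 RPKM. GRHL2, a transcription factor known to act on CLDN4, had 1 read in all 6 libraries, OVOL1 had 2, RAB25 4 and ELF3 8. ESRP2, an epithelial splicing factor, had a log2 fold change of 0.32 ± 0.17 (edgeR adjusted p = 0.410, 0.0053 with offsets, 0.25 without untreated replicate 2).

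All 7 repressors of epithelial genes were tested, 2 above and 5 below 0, with a median of -0.02. ZEB1 stood at 6.78 ± 0.434 RPKM untreated and 6.41 ± 0.475 with relaxin-2, and SNAI2 at 4.47 ± 0.570 and 4.10 ± 0.448. SNAI1 stood at 0.887 ± 0.346 and 1.34 ± 0.144 RPKM (log2 fold change 0.60 ± 0.28, edgeR adjusted p = 0.408, 0.28 with offsets, 0.38 without untreated replicate 2). The RNA of both repressor families was present in both groups, beside 3 to 46 reads for CLDN3, CLDN4 and CLDN7. Whether these levels are linked was not tested.

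The profile of CLDN12 over the 6 libraries was most like those of MOB1A, a Hippo pathway adaptor, ZBTB41, a zinc finger protein, and PURB, a single-strand nucleic acid binding protein, among 5992 genes with a mean log2 CPM of at least 5. Pearson's r of log2 CPM was 0.999, 0.999 and 0.998. These points share their libraries and their base composition trend, and 1686 of the 5992 genes had an r over 0.9.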

How the data were processed

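Per the labels, TRIzol RNA of OVCAR8 cells went into stranded total RNA libraries. What the authors deposited are raw read counts per gene with unstranded, forward and reverse columns, made with STAR on hg38 per the submitters' processing notes, and for STAR's version and annotation the sources used here give nothing. The reverse column was used, since its gene reads exceeded those of the forward one 17.8 to 19.8 times. All 24635 gene IDs with counts in the authors' merged count table equalled it. STAR's gene counts leave out multimapping reads (5.31% to 27.0% of a library) and ambiguous ones (2.36% to 4.18%), so shared exons and near-identical copies are undercounted. Unmapped reads (6.73% to 17.4%) and reads outside exons of the strand (17.5% to 32.0%) stayed out of library sizes.

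Gene models were those of GENCODE release 29, which matched 57433 of 58037 IDs. CPM used TMM-scaled library sizes, except pooled values of the 3 genes below the filter, and RPKM divided CPM by all exon bases of a gene. All 6 libraries, 3 a group, entered 1 fit of edgeR 4.0.16 (default filter, TMM, two-sided quasi-likelihood F test, adjusted p under 0.05 by Benjamini-Hochberg) run in R 4.3.3. Standard errors of log2 fold changes had a median of 0.16, or 0.09 over 5993 abundant genes (average log2 CPM at least 5). The test was also run on simulated counts. Those had no GC trends by library and no library that stood apart, so that run does not cover these features. Alternatives were DESeq2 1.42.0, limma-voom (limma 3.58.1), other scalings, filters, strands and tables, each library left out, a replicate block, GC and length offsets (splines with 4 knots) and 1 surrogate variable (sva 3.50.0). Levels over unshared exon bases and the settings for named list genes were added after seeing the data.

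The members and the 12 other lists were chosen with earlier results of these data known. All 9 genes are named, and from each list the 2 tested genes with the highest level and the 2 with the smallest p, as well as genes with 0 reads, neighbours and the 3 genes most like CLDN12. Of the genes this rule names, 1 is not reported here. Other list genes with few reads, CDH1, CDH2 and EPCAM were chosen after their values were seen. Sequences are RefSeq's for GRCh38.p14.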

Additional observations from a re-analysis of the deposited data

How the results depend on the processing

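None of the 6 tested genes passed under any of the 19 alternatives, and their smallest edgeR adjusted p was 0.238, for CLDN12. The count of genes called over all was 0 except for 120 with no filter on low counts (115 higher with relaxin-2), 3 without both libraries numbered 2, 1 with the replicate block, and 0 to 3 when single libraries were left out, the 3 being without untreated replicate 2. The number block could use only replicates 2 and 3, which both groups share. The labels state no pairs, and the numbers were not taken as such. Same-numbered libraries had correlations of -0.326 and 0.125 in their deviations. These values cannot decide whether the numbers mark pairs, since both libraries numbered 2 carry opposite trends on GC content. Signs turned as follows, and the cause was not tested. With GC content and length offsets the log2 fold change was 0.067 for CLDN1, 0.0032 for CLDN12, 0.075 for OCLN, -0.31 for AMOTL2 and -0.25 for CLDN15. With upper quartile scaling it was -0.0091 for TJP1 and -0.021 for MARVELD2, and with library size only -0.015 for TJP1, -0.0014 for F11R and -0.027 for MARVELD2. Without both libraries numbered 2 it was 0.0065 for OCLN, -0.015 for MARVELD2 and -0.11 for CLDN15, with the replicate block -0.0066 for TJP1, and with 1 surrogate variable -0.046 for MARVELD2. Leaving out single libraries gave -0.12 to -0.024 for CLDN1, -0.24 to -0.05 for CLDN12, -0.15 to 0.027 for OCLN, -0.045 to 0.073 for TJP1, -0.029 to 0.064 for F11R, -0.035 to 0.051 for MARVELD2 and -0.011 to 0.47 for CLDN15. Levels by longest transcript were 24.8 RPKM for CLDN12, 45.8 for TJP1 and 1.32 for MARVELD2, over unshared exon bases 15.7 for CLDN12 and 7.70 for F11R, and unstranded 0.159 for CLDN7. Depth limits CLDN3, CLDN4 and CLDN7 to counting intervals.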
